A study of Homo sapiens with 3 samples.

Results

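Interferon-stimulated genes are the genes that a cell switches on when interferon, a secreted signal of viral infection, reaches its receptors. The 45 described here were taken from a list of symbols and matched in the deposited transcript tables, 44 by the listed transcript name and OAS1 by its Ensembl identifier, because its transcripts carry a clone name there. They are 45 of 60506 genes on the chromosomes, and 41 of them had a summed FPKM (fragments per kilobase of transcript, scaled to library size and added over the transcripts of the gene) of at least 1 on average over the libraries, as did 13923 genes in all. Each of the 41 also stood at 1 or more in the control library and in the mean of the SRSF5 siRNA libraries, so none was kept by the control alone. The list of symbols was chosen with earlier results of these data known.

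The cells were HaCaT, an immortalized line of human keratinocytes, all grown and transfected in the same way. An siRNA at 10 nM was introduced with a lipid reagent. There was 1 library of cells with SRSF5 siRNA No.1 and 1 with SRSF5 siRNA No.2 (siRNA 1 and siRNA 2 from here on, both labelled as SRSF5 knockdown), to be set against 1 library of cells with a control siRNA, labelled wild type. The design asks how expression changes when SRSF5, a serine and arginine rich splicing factor, is depleted. All 3 libraries come from transfected cells, and untransfected cells were not analysed here.

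Type I interferons bind the receptor made of IFNAR1 and IFNAR2, and type III interferons bind IFNLR1 with IL10RB. The kinases JAK1 and TYK2 then switch on a transcription factor complex that holds STAT2 and IRF9 and binds a short DNA element, the interferon-stimulated response element, in the promoters of target genes. The products of these genes block viral RNA, proteins and budding, and some of them (STAT2, IRF9, IRF7) feed back into the pathway. Keratinocytes respond to both kinds of interferon and can make interferon kappa themselves.

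The libraries held 17706018 read equivalents with siRNA 1, 15862004 with siRNA 2 and 18321703 in the control, where a read equivalent is 100 bases of coverage and only the largest transcript of each gene is counted. SRSF5 itself was at 44.3 and 18.7 summed FPKM with siRNA 1 and siRNA 2, against 94.1 in the control. All 9 keratinocyte marker genes were above the filter, with a list sum of 6105 and 10012 summed FPKM with siRNA 1 and siRNA 2, against 4934 in the control. KRT17 (723 and 1312, against 263) and LAMB3 (401 and 435, against 257) were at least 1.5-fold higher with both, and KRT14 was at 1040.2 and 3164, against 714, while KRT6A was at 479.9 and 469.6, against 594. Of the markers of other cell types, 0 of 7 immune genes, 1 of 6 fibroblast genes (COL1A1), 1 of 5 melanocyte genes (MITF) and 1 of 4 endothelial genes (CDH5) reached the filter. CDH5 was at 0.693 and 1.24 with siRNA 1 and siRNA 2, against 3.08 in the control, and the 4 endothelial genes together at 1.91 and 2.46, against 3.71. The 6 fibroblast genes together were at 5.62 and 6.43 with siRNA 1 and siRNA 2, against 2.92 in the control, the 5 melanocyte genes at 7.70 and 5.84, against 4.51, with MLANA and TYR at 0, and the 7 immune genes at 1.03 and 1.32, against 0.772. Mitochondrial transcripts held 15.1%, 10.2% and 14.0% of the covered bases in siRNA 1, siRNA 2 and control. The part of these markers or of the mitochondrial share in the results was not tested. In a bulk library, fewer cells that express a gene and less RNA per cell cannot be told apart.

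Most of the genes with a promoter entry held a match to the core of the element through which the pathway acts. These matches are shown first. RefSeq promoters (GRCh38.p14, 250 bases before the start site and 50 from it on) were found for 38 of the 45 genes. They were not matched for IFIT2, IRF7, MX2, OAS2, OASL, TRIM22 and USP18. The core of the response element, searched as GAAA and GAAA with any 2 bases between them, or as TTTC and TTTC on the other strand, was present in at least 1 promoter of 25 of the 38 genes (65.8%), against 1195 of 27305 genes in the whole table (4.38%). The gamma activated site, searched as TTCNNNGAA, which reads the same on both strands and can overlap the first motif by a few bases, was present in 12 of the 38 (31.6%), against 9.38% of all genes. A match is a string of letters and does not show that a factor binds there. Promoters of the 3 genes above the filter with the lowest mean log2 ratio to the control follow, with response element core matches in capitals:
IFI6: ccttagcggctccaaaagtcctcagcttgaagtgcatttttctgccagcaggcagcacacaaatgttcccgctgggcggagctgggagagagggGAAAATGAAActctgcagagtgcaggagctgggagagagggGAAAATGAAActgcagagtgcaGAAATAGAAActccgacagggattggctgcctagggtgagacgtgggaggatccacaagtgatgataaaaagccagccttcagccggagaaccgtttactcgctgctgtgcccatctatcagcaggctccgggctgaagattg
IFI27: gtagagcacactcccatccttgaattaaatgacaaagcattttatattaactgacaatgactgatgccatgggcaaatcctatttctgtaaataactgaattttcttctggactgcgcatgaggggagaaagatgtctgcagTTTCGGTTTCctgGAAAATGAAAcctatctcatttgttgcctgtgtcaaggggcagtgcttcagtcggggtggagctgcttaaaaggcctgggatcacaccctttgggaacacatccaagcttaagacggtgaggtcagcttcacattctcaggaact
MX1: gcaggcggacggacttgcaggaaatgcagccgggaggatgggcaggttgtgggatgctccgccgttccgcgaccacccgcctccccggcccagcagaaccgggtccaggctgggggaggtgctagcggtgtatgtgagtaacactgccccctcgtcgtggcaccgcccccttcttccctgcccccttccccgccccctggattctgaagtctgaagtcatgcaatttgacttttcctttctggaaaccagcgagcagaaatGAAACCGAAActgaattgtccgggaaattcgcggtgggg
The IFI6 promoter (chr1:27672143-27672442, minus strand) holds 3 separate matches, which begin 156, 115 and 93 bases before the start site. The IFI27 promoter (chr14:94110486-94110785, plus strand) holds 2 facing matches, 1 on each strand, which begin 108 and 95 bases before the start site. The MX1 promoter (chr21:41420308-41420607, plus strand) holds its match 11 bases after this start site. MX1 has 3 promoter entries in RefSeq, of which 2 hold a match, and the first of those is printed.

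Matches in other genes of the set are alike in their capitals by construction, because the search fixed all but 2 bases of each. OAS3 and RTP4 hold a further match that is not printed. Short stretches around a match, picked in the GAAA orientation, are shown for genes whose response differed. The first 3 belong to genes that were lower with both siRNAs, and the last 4 to genes that were not:
BST2: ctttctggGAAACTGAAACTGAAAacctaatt
ISG15: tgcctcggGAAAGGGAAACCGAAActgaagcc
OAS3: ccgggcggGAAAACGAAAccagaaat
EIF2AK2: tccaagggGAAAACGAAActgagaac
DTX3L: agggaagcGAAACTGAAActttgcgc
SAMD9: tgagaaatGAAACTGAAAccaaacct
RTP4: cgaacaccGAAACTGAAActgtttgt
The capitals lie at chr19:17405745-17405760 (BST2, minus strand) and chr1:1013384-1013399 (ISG15, plus), where 2 overlapping matches form 1 run, and at chr12:112938462-112938471 (OAS3, plus). They lie at chr2:37156977-37156986 (EIF2AK2, minus), chr3:122564332-122564341 (DTX3L, plus), chr7:93118106-93118115 (SAMD9, minus) and chr3:187368367-187368376 (RTP4, plus). The DTX3L match is also the PARP9 match, since these neighbours are transcribed in opposite directions from a shared stretch of chromosome 3. A match was present in 6 of the 9 genes with a promoter entry that were lower with both siRNAs, and in 17 of the 26 other genes above the filter. The gamma activated site was present in 5 of those 9 and in 7 of those 26. XAF1, OAS1 and IFI35 were lower with both siRNAs and held no match to the response element core in these windows.

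**Figure D1:**
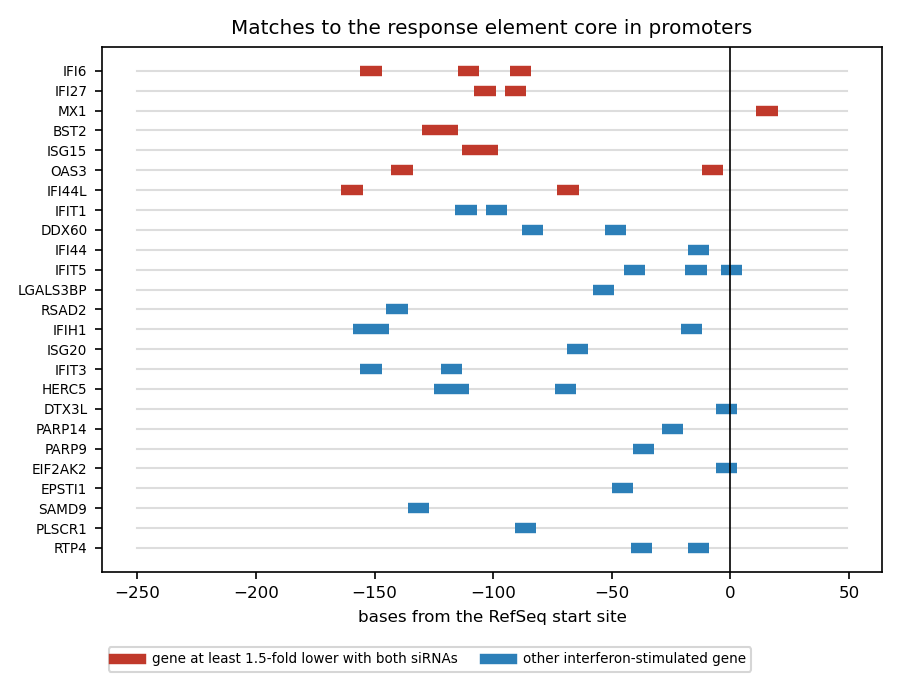
Matches to the interferon-stimulated response element core in the promoters of 25 genes, by distance in bases from the RefSeq start site (vertical line), with 1 promoter entry per gene and genes ordered from the lowest mean ratio to control at the top. Red marks genes at least 1.5-fold lower with both siRNAs (IFI44L among them is below the expression filter) and blue the others; matches occur in both colours, and all begin before the start site except that of MX1.

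The set as a whole lay below the control, further with siRNA 2 than with siRNA 1. The median log2 ratio (of summed FPKM plus 1) over the 41 genes was -0.27 with siRNA 1 and -0.52 with siRNA 2, where the medians over all 13923 genes were -0.02 and 0.05. Below the control were 31 of the 41 with siRNA 1, where 53.4% of all genes were, and 35 with siRNA 2, where 46.0% were. At least 1.5-fold lower than the control were 14 genes with siRNA 1 (5.47% of all genes) and 19 with siRNA 2 (10.1%), and at least 1.5-fold higher was 1 gene with each (6.18% and 13.2% of all genes), RTP4 with siRNA 1 and PLSCR1 with siRNA 2. By the rule that asked for 1.5-fold in both siRNA libraries, 10 of the 41 were lower, against 1.47% of all genes, and 0 were higher, against 3.19%. The members were chosen with earlier results of these data known, so these shares describe the set and test nothing. The 0 depends on the pseudocount: with 0.1 FPKM in place of 1, RTP4 was higher in both. It stood at 206% and 157% of the control with siRNA 1 and siRNA 2. At 2-fold, 8 of the 41 were lower in both, against 0.28% of all genes. With the mean FPKM over transcripts in place of the sum, 6 were lower in both at 1.5-fold, and the share of all genes was not computed there. With 1 siRNA library alone the count was 14 (siRNA 1) or 19 (siRNA 2). Both ratios of a gene share the 1 control library, so a chance high value there lowers both. In limma, fitted across all 13923 genes with the spread taken from the difference between the siRNAs, 0 of the 41 had a Benjamini-Hochberg adjusted p below 0.05, as did 0.0% of all genes. At an unadjusted p below 0.05 limma gave 10 of the 41, which were the 10 lower in both, where 2.99% of all genes passed, and a robust fit called 0 of the 41 and 3 genes in all.

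**Figure D2:**
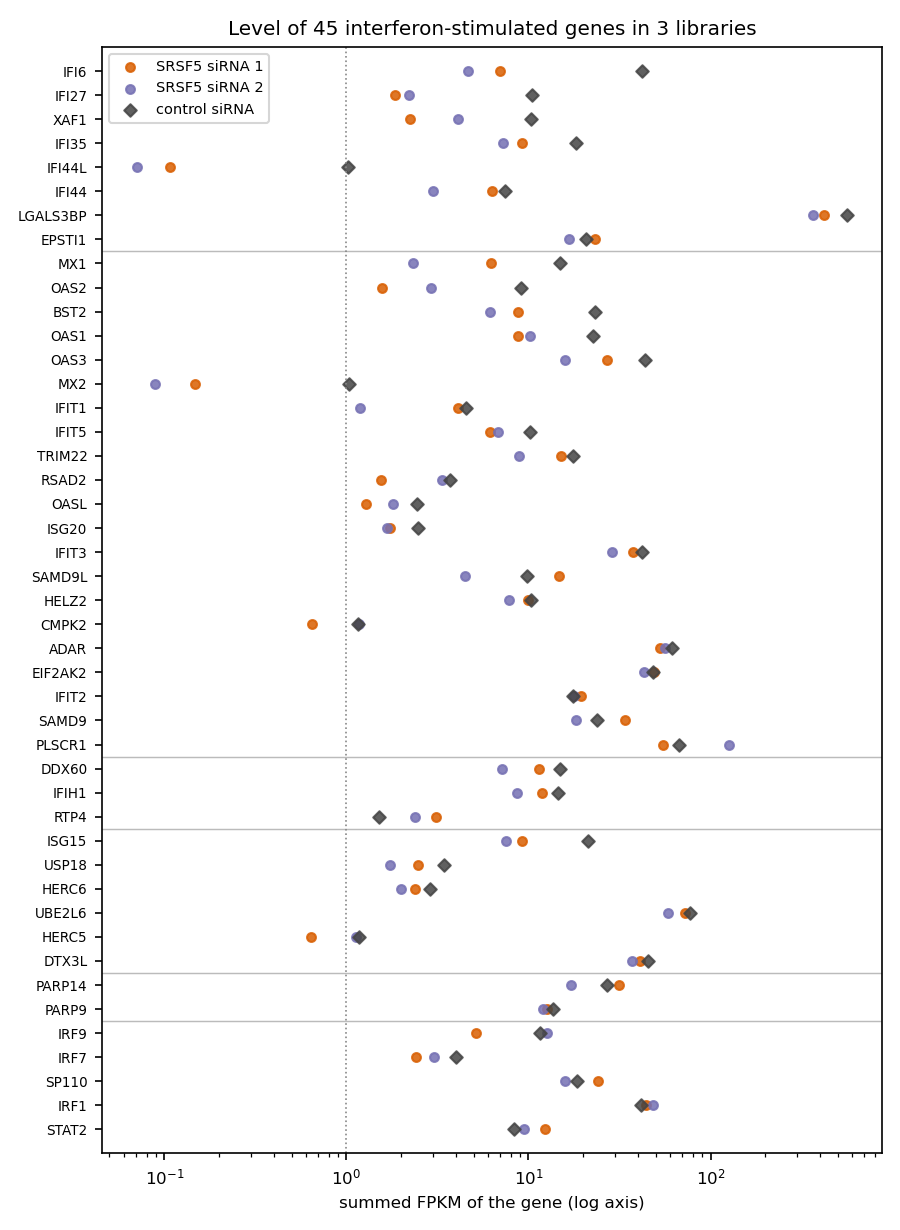
Summed FPKM (log axis) of each of the 45 genes in the siRNA 1, siRNA 2 and control libraries, 1 point per library, grouped by role in the order other interferon-induced genes, effectors, sensing, the ISG15 system, ADP-ribosyl transferases and transcription, with the filter at 1 dotted. IFI6, IFI27, XAF1 and IFI35 at the top and MX1, OAS2, BST2, OAS1 and OAS3 in the next block have both siRNA points well left of the control.

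**Figure D3:**
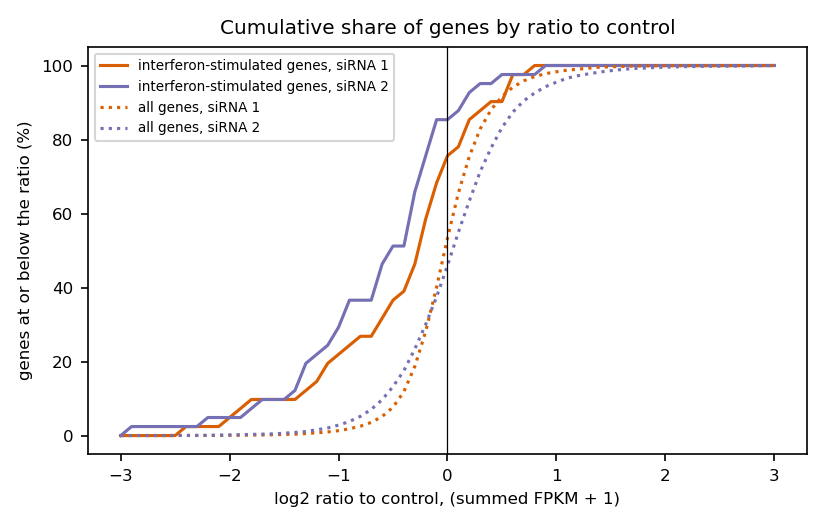
Share of genes (percent) at or below each log2 ratio to control, for the 41 interferon-stimulated genes above the filter (solid) and all 13923 genes (dotted), with siRNA 1 and siRNA 2 in separate colours. Below a ratio of 0 both solid curves lie left of the dotted ones, with 22.0% and 29.3% of the interferon-stimulated genes at or below -1, against 1.33% and 2.83% of all genes.

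By log2 ratio IFI6 was the member farthest from the control, although IFI44L and MX2, below the filter, stood at smaller percentages of it. IFI6 encodes a small membrane protein of mitochondria and the endoplasmic reticulum, and lies on chromosome 1 (27666064 to 27672198, minus strand, GRCh38). Its summed FPKM was 6.95 with siRNA 1 and 4.67 with siRNA 2, against 42.2 in the control, or 16.5% and 11.1% of the control. Both siRNA libraries were far below the control and close to each other, with log2 ratios of -2.44 and -2.93 (mean -2.69 ± 0.35, SD, n = 2). The 3 listed transcripts hold equal read equivalents, 80.3 and 52.7 each with siRNA 1 and siRNA 2, against 514.8 in the control. These transcripts share reads, so they are 1 measurement, and the gene can rest on more reads than each of them holds. Counting error on the log2 ratios was 0.17 and 0.21, and limma gave a log2 difference of -2.69 (SE 0.44, Benjamini-Hochberg adjusted p = 0.165). Over the other 9 genes lower with both siRNAs that adjusted p was 0.697 (IFI27) to 1.

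IFI27, a relative of IFI6 on chromosome 14 (94104836 to 94116698, plus strand), was at 1.84 and 2.19 summed FPKM with siRNA 1 and siRNA 2, against 10.4 in the control. All 15 of its transcripts were below the control in both siRNA libraries. The transcript with the most bases is a retained intron form with 7.40 and 12.4 read equivalents, against 25.7 in the control, while the coding form IFI27-213 held 3.82 and 3.98, against 23.2. The log2 ratios of the gene were -2.00 and -1.84, and the counting errors of its largest transcript alone were 0.60 and 0.50. Its 15 transcripts share reads, so the gene as a whole rests on more reads than that transcript.

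The 3 OAS enzymes that make the RNase L activator 2-5A stand side by side on chromosome 12, and each was lower with both siRNAs. OAS2 was at 1.56 and 2.93 summed FPKM with siRNA 1 and siRNA 2, against 9.14 in the control (log2 ratios -1.99 and -1.37). OAS1 was at 8.71 and 10.2, against 22.6 (-1.28 and -1.07). OAS3, the best measured of the 3 with 2155 and 1294 read equivalents, against 3819, was at 27.0 and 15.8 summed FPKM, against 43.7 (-0.67 and -1.41). The order of the siRNAs differed within this cluster: OAS2 was 1.5-fold or more higher with siRNA 2 than with siRNA 1 and OAS3 1.5-fold or more lower. The related OASL, which lacks that enzyme activity, lies elsewhere on chromosome 12 and was at 1.28 and 1.80, against 2.43, past 1.5-fold with siRNA 1 only.

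The MX GTPases, which block incoming viruses, are neighbours on chromosome 21. MX1 was at 6.22 and 2.33 summed FPKM with siRNA 1 and siRNA 2, against 15.0 in the control, with log2 ratios of -1.14 and -2.26 and all 18 transcripts below the control in both. The siRNA libraries differed from each other here by -1.12 (siRNA 2 over siRNA 1), about as far apart as siRNA 1 and the control. MX2 was below the filter, at 0.148 and 0.0892, against 1.03, on 2.09 and 1.67 read equivalents with siRNA 1 and siRNA 2, against 20.97. Few reads lie behind its log2 ratios of -0.82 and -0.90, which the pseudocount makes smaller, since the levels were 14.4% and 8.67% of the control. The counting errors of 1.05 and 1.16 belong to its largest transcript without a pseudocount, so they are not on the scale of those ratios.

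BST2, or tetherin, holds budding virions at the cell surface. It was at 8.76 and 6.14 summed FPKM with siRNA 1 and siRNA 2, against 23.1 in the control, with log2 ratios of -1.30 and -1.75 and counting errors of 0.20 and 0.23. XAF1, which promotes apoptosis, was at 2.24 and 4.08, against 10.3, with ratios of -1.80 and -1.15 and all 19 transcripts below the control in both. IFI35, which binds the related protein NMI, was at 9.17 and 7.27, against 18.1, with ratios of -0.91 and -1.21. In each of these genes both siRNA libraries lay under the control by more than they lay from each other.

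ISG15 is a ubiquitin-like protein that is joined to other proteins, and its enzymes stood nearer to the control than it did. ISG15 was at 9.24 and 7.54 summed FPKM with siRNA 1 and siRNA 2, against 21.2 in the control (log2 ratios -1.12 and -1.38). UBE2L6, its conjugating enzyme, was at 72.6 and 58.5, against 76.7 (-0.08 and -0.39). USP18, which removes ISG15 and also restrains the type I receptor, was at 2.46 and 1.75, against 3.45 (-0.36 and -0.70), so only siRNA 2 was past 1.5-fold. HERC5, the ligase for ISG15, was below the filter at 0.643 and 1.13, against 1.18, and its relative HERC6 was at 2.39 and 2.01, against 2.88. DTX3L, a ubiquitin ligase, was at 41.0 and 37.1, against 45.5, and its partner PARP9 at 12.7 and 12.1, against 13.6. DTX3L and PARP9 were thus within 0.29 of the control on the log2 scale in both siRNA libraries.

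**Figure D4:**
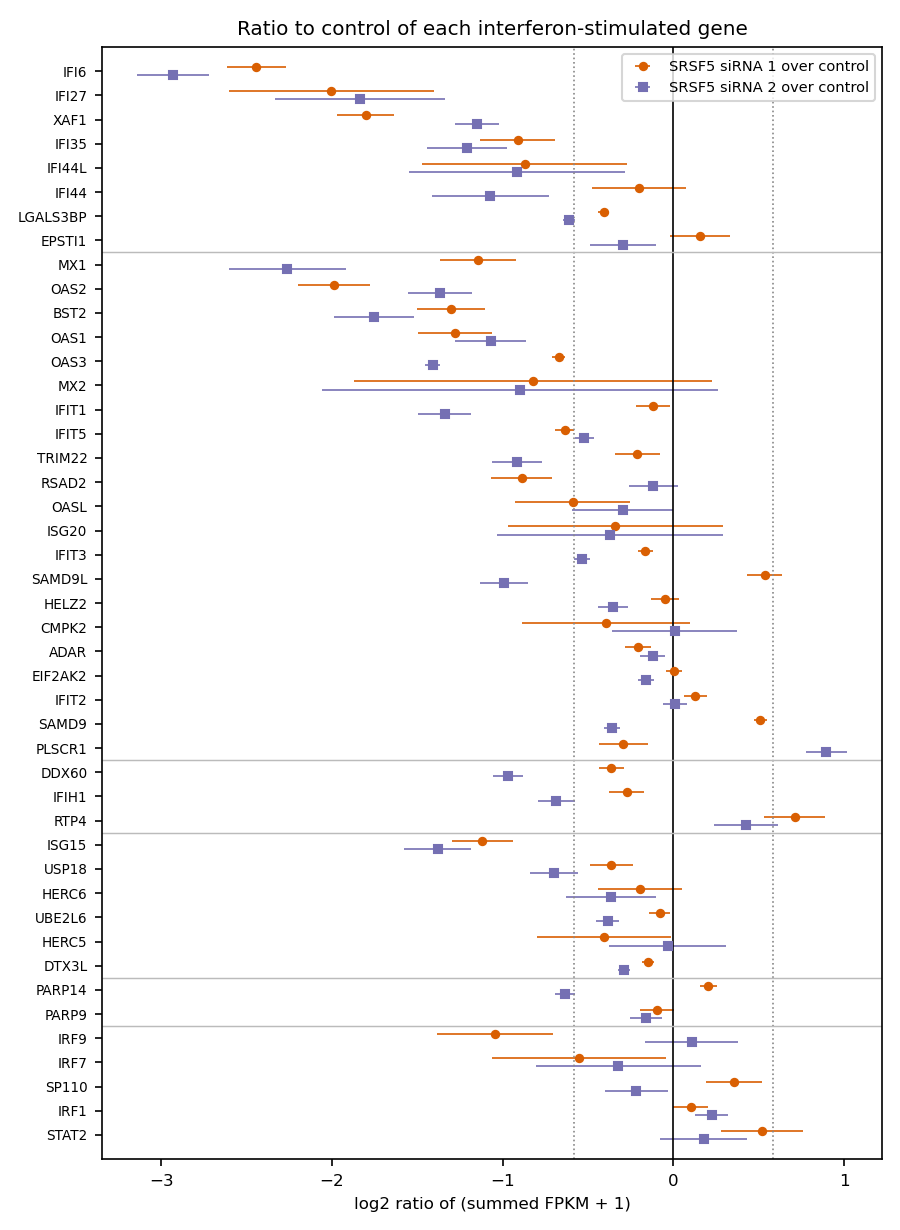
Log2 ratio to control of summed FPKM plus 1 for each of the 45 genes with siRNA 1 (circles) and siRNA 2 (squares), in the same order of roles, with bars for the counting error of the largest transcript (1 SE, not replicate error) and dotted lines at 1.5-fold. Left of the left dotted line with both siRNAs are 12 genes, of which IFI44L and MX2 are below the expression filter. MX2, IFI44L, IFI27, ISG20, IRF7 and CMPK2 have the widest bars. The bars carry no pseudocount, so they are too wide beside the ratios of low genes.

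The IFIT family, some of which bind foreign RNA ends, is a cluster on chromosome 10 whose members differed from each other. IFIT1 was at 4.10 and 1.19 summed FPKM with siRNA 1 and siRNA 2, against 4.54 in the control, so siRNA 1 stood close to the control and siRNA 2 far below it (log2 ratios -0.12 and -1.34). IFIT5 was at 6.17 and 6.76, against 10.1 (-0.64 and -0.52), lower with both but past 1.5-fold with siRNA 1 only. IFIT3 was at 37.4 and 28.7, against 42.0 (-0.16 and -0.53). IFIT2 was at 19.4 and 17.8, against 17.6, so none of its libraries stood apart. These 4 genes have 109 to 2287 read equivalents in each library and counting errors of at most 0.154.

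Several effectors and sensors were lower with siRNA 2 and nearer to the control with siRNA 1. DDX60, a helicase that aids RNA sensing, was at 11.4 and 7.13 summed FPKM with siRNA 1 and siRNA 2, against 14.9 in the control (-0.36 and -0.97). IFIH1, the double-stranded RNA sensor MDA5, was at 11.9 and 8.68, against 14.6 (-0.27 and -0.69). TRIM22, an antiviral ubiquitin ligase, was at 15.0 and 8.83, against 17.6 (-0.21 and -0.92). The values for DDX60, IFIH1 and TRIM22 all run in the order siRNA 2, siRNA 1, control from low to high. IFI44 did the same, at 6.30 and 2.998, against 7.41 (-0.20 and -1.07), while its neighbour IFI44L, below the filter, was at 0.107 and 0.0712, against 1.02, on 6.47 and 5.74 read equivalents, against 54.7. LGALS3BP, a secreted glycoprotein, was at 420.2 and 364.8, against 557.8 (-0.41 and -0.61, counting error 0.03 each). PARP14, an ADP-ribosyl transferase, was at 31.2 and 17.0, against 27.0 (0.20 and -0.64), above the control with siRNA 1 and below it with siRNA 2.

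Other members were lower with siRNA 1 and close to the control with siRNA 2. RSAD2, or viperin, which makes a chain-terminating nucleotide, was at 1.54 and 3.34 summed FPKM with siRNA 1 and siRNA 2, against 3.71 in the control (-0.89 and -0.12). CMPK2, its neighbour on chromosome 2 and a nucleotide kinase, was below the filter and also lowest with siRNA 1, at 0.647 and 1.18, against 1.16. IRF9, the DNA-binding partner of STAT2, was at 5.12 and 12.6, against 11.6 (-1.04 and 0.11). IRF9 is uncertain, because 45.5% of its exonic bases overlap another gene on the same strand, the only member with over 20%.

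Set directly against each other, siRNA 2 was at least 1.5-fold lower than siRNA 1 for 9 of the 41 genes (10.5% of all genes) and at least 1.5-fold higher for 5 (13.7%). Below siRNA 1 by any size were 29 of the 41, where 44.2% of all genes were. The widest gap was at SAMD9L, a growth-restricting antiviral factor, with 4.46 summed FPKM in siRNA 2 and 14.8 in siRNA 1 (log2 difference -1.53), and the control between them at 9.87. Its neighbour SAMD9 on chromosome 7 showed the same order, at 18.2 in siRNA 2, 34.1 in siRNA 1 and 23.6 in the control. IFIT1 followed with -1.22, then PLSCR1, a phospholipid scramblase, at 126.3 in siRNA 2 and 54.8 in siRNA 1 (1.19), with 67.4 in the control. IRF9 (1.15) and MX1 (-1.12) came next. Each siRNA had 1 library, so these gaps have no replicate check, and counting errors on the 5 differences were 0.14, 0.16, 0.13, 0.34 and 0.37 in the order named. Of the 10 genes lower with both siRNAs, MX1 and OAS3 were lower again with siRNA 2, and OAS2 and XAF1 were higher with siRNA 2 than with siRNA 1, by the same rule of 1.5-fold.

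Of the 5 transcription factors and nuclear regulators in the set 0 were at least 1.5-fold lower with both siRNAs, where 1.47% of all genes were. For a list of 5 genes a count of 0 is near that share and does not set the group apart. IRF9 was at least 1.5-fold lower with siRNA 1 alone, and several abundant effectors were within 1.5-fold with both. STAT2, a subunit of the factor that binds the response element, was at 12.3 and 9.49 summed FPKM with siRNA 1 and siRNA 2, against 8.27 in the control (0.52 and 0.18), and 22 of its 24 transcripts were above the control in both. IRF1, which responds mainly to interferon gamma, was at 44.4 and 48.4, against 41.3. IRF7, which drives later interferon genes, was at 2.42 and 3.01, against 4.01, on 12.5 and 14.8 read equivalents, against 22.0. Its log2 ratios were -0.55 and -0.32, and the counting errors of its largest transcript were 0.51 and 0.48. SP110, a nuclear body protein, was at 24.0 and 15.8, against 18.5. The RNA editor ADAR was at 52.9 and 56.3, against 61.3, and the double-stranded RNA kinase EIF2AK2 at 48.6 and 43.3, against 48.5. HELZ2, a helicase, was at 9.91 and 7.85, against 10.3, EPSTI1 at 23.3 and 16.8, against 20.8, and the exonuclease ISG20 at 1.73 and 1.67, against 2.46. RTP4, a chaperone of membrane receptors, was higher in both siRNA libraries, at 3.10 and 2.37, against 1.51 (0.71 and 0.43, counting errors 0.18 and 0.19).

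The FPKM of the highest transcript is per length, but it ranks genes only roughly, because isoforms share reads and a short isoform can be the highest. For DTX3L in the control this was DTX3L-202, of 687 bases, at 30.6, against 14.9 for DTX3L-201, of 5768 bases. On that scale LGALS3BP was the highest in each library, at 43.5 and 36.1 with siRNA 1 and siRNA 2, against 57.9 in the control. DTX3L (27.7 and 24.2, against 30.6), UBE2L6 (20.04 and 15.9, against 21.6) and IFIT3 (19.1 and 14.8, against 21.5) followed. IFI6 came next in the control at 14.2 but was at 2.34 and 1.57 with siRNA 1 and siRNA 2. IFI6 is the member above the filter farthest from the control, so every other member differs less, whatever its level. A relation between level and response was not tested. By summed FPKM, which adds transcripts of unlike length, LGALS3BP, PLSCR1, UBE2L6, ADAR and EIF2AK2 led.

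Upstream of these genes, the interferons were at or near 0, and no receptor or kinase was apart from the control in both siRNA libraries. Of 21 interferon genes, 19 were listed at 0 in every library, IFNB1 among them. IFNK, the keratinocyte interferon, was listed at 0 with siRNA 1, 0.0213 with siRNA 2 and 0 in the control, and IFNE at 0.0962 and 0.115, against 0.198. Of the 6 receptor genes, 0 were at least 1.5-fold apart in both siRNA libraries, where 1.47% of all genes were lower and 3.19% higher. In a list this short a count of 0 is near those shares. IFNAR1 was at 18.8 and 23.3 summed FPKM, against 23.2, IFNAR2 at 4.38 and 4.98, against 7.28 (-0.62 and -0.47), and IFNLR1 at 3.60 and 2.09, against 4.52 (-0.26 and -0.83). Of the 9 measured kinases, STATs and interferon regulatory factors outside the set, 0 were apart in both, which is also near the shares of all genes. JAK1 was at 66.2 and 70.1, against 60.7, TYK2 at 22.7 and 15.3, against 20.7, and IRF3 at 27.2 and 25.8, against 36.8 (-0.42 and -0.49).

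Of the nucleic acid sensors 0 of 12 measured genes were apart in both siRNA libraries, and of the negative regulators 0 of 10. For lists of this length these counts are near the shares of all genes (1.47% lower and 3.19% higher). RIGI, the sensor of RNA with a triphosphate end, was at 3.71 and 4.79 summed FPKM with siRNA 1 and siRNA 2, against 4.78 in the control. The medians of the sensors were -0.28 and -0.01 and those of the negative regulators -0.11 and 0.43. SOCS1, an inhibitor of JAK kinases, was at 0.896 and 4.98, against 0.973 (-0.06 and 1.60), so only siRNA 2 stood above the control. A list of 34 further interferon-induced genes had 29 above the filter, with medians of -0.09 and -0.42. By the rule of 1.5-fold in both, 0 of these 29 were lower (1.47% of all genes) and 0 higher (3.19%). With siRNA 1 alone 1 was lower (5.47% of all genes) and 1 higher (6.18%), and with siRNA 2 alone 7 were lower (10.1%) and 2 higher (13.2%).

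**Figure D5:**
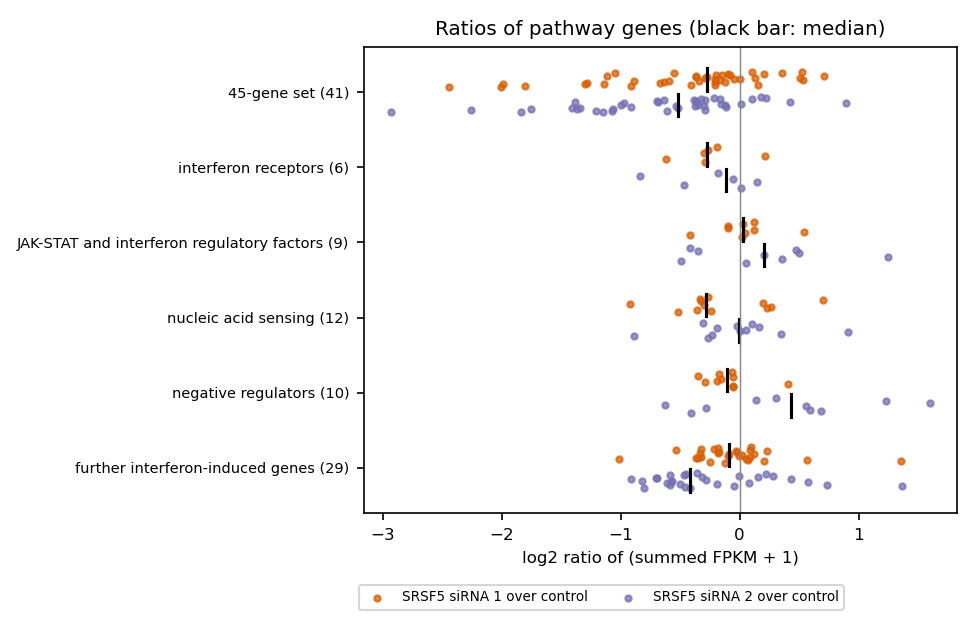
Log2 ratio to control of summed FPKM plus 1 for the 41 interferon-stimulated genes and 5 lists of pathway genes (number above the filter in brackets), with 1 point per gene, siRNA 1 above siRNA 2 in each row, and a black bar at the median. Ratios below -1.1 occur only in the top row in this plot, and the row of negative regulators has its siRNA 2 median at 0.43.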

How the data were processed

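Expression was measured by RNA sequencing of 3 HaCaT libraries. The deposited values are FPKM per transcript, per the file headers, with exons, strand and length. Which aligner and counter were run is not given in the sources used here. GRCm38, mm10 and GRCh38.p12 appear, with no role stated, in the submitters' processing notes. All 191787 transcript identifiers shared with GENCODE on GRCh38 had the same coordinates. FPKM multiplied by length fell on whole steps for 100% of values (tolerance 0.05), so covered bases were recovered and divided by 100 into read equivalents. Isoforms share reads. Among single-exon transcripts nested in an exon, the inner one held more bases in 0 of 2576 pairs on the same strand and 65 of 674 on opposite strands, so overlapping antisense genes were separated by strand. Reads of near-identical genes stay uncertain.

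FPKM was summed per Ensembl gene, leaving out 20343 of 247012 transcripts (scaffolds, duplicate copies). Symbols matched 60214 of 60506 genes. Ratios are of log2(FPKM + 1), a scale that understates the change of low genes. A call is 1.5-fold or more with no p-value. limma 3.58.1 (R 4.3.3, trend, Benjamini-Hochberg) compared 2 siRNA libraries with 1 control, leaving 1 residual degree of freedom; the control is assumed to vary like the siRNA libraries. No label says that transfections were repeated in separate cultures, so p-values measure only the spread between these samples. Counting errors use the reads of the largest transcript with no pseudocount, so they can exceed the error of a ratio of log2(FPKM + 1). They leave out PCR duplication. Members and lists were chosen with earlier results of these data known. All members are accounted for; full statistics go to those lower or higher in both siRNA libraries, the 5 widest siRNA gaps and the 5 highest levels, and named pathway genes are those apart in both plus a short list of interferons, receptors, kinases, IRF3, RIGI and SOCS1. Alternatives changed the pseudocount, filter, gene level, scaling, fold, limma options and libraries used.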

Additional observations from a re-analysis of the deposited data

How the results depend on the processing

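The 10 genes lower with both siRNAs were all lower in both with a pseudocount of 0.1 FPKM, without a filter, with the highest transcript of each gene, with FPKM rescaled without mitochondrial transcripts and with median scaling. With the mean over transcripts, which makes levels smaller against the pseudocount, 6 were lower with both, 8 with siRNA 1 and 12 with siRNA 2, and between the siRNAs 4 were lower and 1 higher with siRNA 2. At 2-fold, 8 were lower with both, with siRNA 1 9 were lower and 0 higher, with siRNA 2 12 lower and 0 higher, and between the siRNAs 3 lower and 2 higher. With a pseudocount of 0.1, 1 was higher with both (RTP4) and 2 with siRNA 2. For counts under other settings of pseudocount, filter, gene level and fold, the share of all genes was not computed, except 2-fold lower with both (0.28%). Whether the members stand apart from all genes under those settings was thus not tested. With a filter of 5 FPKM, which 8 of the 10 passed and stayed lower in, 0 were higher with siRNA 1 and 3 were higher with siRNA 2 than with siRNA 1; with the highest transcript this last count was 2. Leaving out 1 siRNA library gave 14 to 19 lower and 1 higher; limma could not be fitted then. In limma no member passed the adjusted threshold in any fit, and the number at an unadjusted p below 0.05 changed with the filter. Of the mean ratios of 18 named genes recomputed with all libraries, 111 moved by less than the SD between the siRNAs and 12 by more, with 0 changes of sign. A change of filter leaves the ratio of a gene as it is, so part of the 111 was fixed in advance. The 12 belong to IFI27, MX1, OAS2, XAF1, OAS1 and IFI35, all lower with both siRNAs. With the mean over transcripts IFI27 went from -1.92 to -0.58 and MX1 from -1.70 to -0.57. Leaving out 1 of the 2 siRNA libraries turned the sign for 4 genes that differ between the siRNAs or lie near 0: IRF9 (0.11 without siRNA 1), and SAMD9L (0.54), EIF2AK2 (0.0042) and PLSCR1 (-0.29) without siRNA 2. No paired analysis was possible because the control has 1 library. By the counting error of the largest transcript, depth limits MX2, IFI44L, IFI27, ISG20 and IRF7 most.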

Other observations

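Outside the named list, chosen after their values were seen, some genes of the pathway parted the siRNAs. IFI16, a DNA-binding sensor, was at 143.2 summed FPKM with siRNA 2 and 41.8 with siRNA 1, against 85.6 in the control. STING1, the adaptor of DNA sensing, was at 17.8 with siRNA 2 and 8.58 with siRNA 1, against 17.1. GBP1, a guanylate-binding protein mainly driven by interferon gamma, was at 2.96 with siRNA 2 and 9.49 with siRNA 1, against 3.10. SOCS3, another inhibitor of cytokine signalling, was at 8.13 with siRNA 2 and 2.07 with siRNA 1, against 2.90. These are single libraries with no replicate check.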
